A study of Mus musculus with 7 samples.

Results

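To assess metallothioneins and zinc transporters after loss of WDR6, a WD40 repeat protein, 8 genes were taken by symbol from the count table of primary hepatocytes, the main epithelial cells of liver. They are the metallothioneins *Mt1* and *Mt2*, their activator *Mtf1*, the exporters *Slc30a1* and *Slc30a10*, and the importers *Slc39a4*, *Slc39a10* and *Slc39a14*. Of the 8 genes, 7 were analysed, among 14819 rows in all, and *Slc30a10*, known as a manganese exporter, has no counts analysed here and appears only by its promoter. The hepatocytes came from male WT mice (4 libraries) and male WDR6-WKO mice (3 libraries), in which exon 2 of *Wdr6* is deleted in every cell of the body, so that the other liver cells carry the allele as well. All cells were left untreated and kept overnight in William's E medium with fetal bovine serum after collagenase perfusion, and the study's methods give a general default age for purchased mice but none specific to these donors.

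Metallothioneins are small cysteine-rich proteins that bind zinc, copper and cadmium in the cytosol, and zinc transporters move the metal across membranes in opposite directions. Members of the ZnT family (Slc30 genes) carry zinc out of the cytosol, and members of the ZIP family (Slc39 genes) carry it in. In hepatocytes, free zinc is sensed by the transcription factor MTF1, which binds metal response elements and drives metallothionein transcription, while glucocorticoids and interleukin-6 are known to raise metallothioneins and Slc39a14 in the acute phase.

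Each library held 17816913 to 23668940 counted reads, and members had between 332 and 13208 reads per library. *Wdr6* was counted 769 to 972 times in WT and 40 to 62 times in WDR6-WKO libraries, as labelled. WDR6-WKO replicate 3 stood apart from the other libraries. Its Spearman correlations with the remaining WDR6-WKO libraries were 0.992 and 0.993, against 0.995 to 0.996 for the other pairs within a genotype, so the log2FC, the log2 fold change of WDR6-WKO against WT, of each member is also given without it. *Alb* stood at 7366 CPM in WT, where CPM are counts scaled to a common library size by the TMM method. The summed level of 10 hepatocyte markers was 15148 to 17915 CPM in WT, against 13390 to 15247 CPM in WDR6-WKO, and 5 of the 10 fell in edgeR's test. The sum of 14 Kupffer cell markers was 889 to 969 CPM in WT and 1026 to 1230 CPM in WDR6-WKO, with 4 of 14 higher. In WDR6-WKO replicate 3 these sums were 15247 and 1026 CPM, the highest and the lowest of the 3 WDR6-WKO libraries. Of the other lists, 2 of 10 stellate cell and 2 of 6 cholangiocyte markers were higher. Among sinusoidal endothelial markers, 1 of 9 was lower. Over all genes tested, edgeR called 6.65% higher and 6.18% lower. Cholangiocyte sums were 4175 to 4485 CPM in WT and 4815 to 5301 CPM in WDR6-WKO. *Spp1*, at a mean of 2980 CPM in WT and 3693 CPM in WDR6-WKO, made up most of them. *Krt19*, *Krt7* and *Tm4sf4* had log2FCs below 0 (-0.05, -0.10 and -0.07) and were not called. *Sox9* and *Epcam* were above 0, as was *Spp1*. Lymphocyte and neutrophil markers were not analysed here. In bulk RNA, fewer cells of a type and less RNA per cell cannot be told apart, and the part that these markers have in the results below was not tested.

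*Mt1* and *Mt2* lie side by side on the plus strand of chromosome 8 of GRCm38, *Mt2* from 94172664 to 94173568 and *Mt1* from 94179082 to 94180327, with 5513 bases between them. Both have 3 exons and encode 61 codons before the stop. Their coding sequences are shown because *Mt1* and *Mt2* went opposite ways, in CPM, in WDR6-WKO replicates 1 and 2, though not in replicate 3. Reads of similar copies could also be mixed. Capitals mark the cysteine codons, whose thiols hold the metal. The sequences were read from the GENCODE transcripts *Mt1*-201 and *Mt2*-201.

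Mt1: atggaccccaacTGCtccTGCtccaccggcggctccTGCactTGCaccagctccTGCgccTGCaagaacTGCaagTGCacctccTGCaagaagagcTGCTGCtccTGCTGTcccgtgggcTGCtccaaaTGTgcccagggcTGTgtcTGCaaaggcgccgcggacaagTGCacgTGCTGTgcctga

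Mt2: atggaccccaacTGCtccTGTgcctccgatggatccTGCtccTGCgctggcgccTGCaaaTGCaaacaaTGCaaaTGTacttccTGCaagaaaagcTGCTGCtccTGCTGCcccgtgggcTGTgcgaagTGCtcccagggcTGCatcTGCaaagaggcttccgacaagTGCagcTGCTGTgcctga

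Each coding sequence has 20 cysteine codons, all 20 at the same positions, and neither has a histidine codon. The sequences were identical at 148 of 186 bases (79.6%). The longest stretch shared by both transcripts was 20 bases, and no stretch of 50 bases of either was found in a transcript of another gene outside its own locus. Annotation differs between them in another way. *Gm45774*, an antisense RNA on the minus strand, covers 355 of the 511 bases of the *Mt2* transcript (69.5%), whereas no annotated gene overlaps the exons of *Mt1*. *Gm45774* was itself counted 7 to 19 times per library. Whether the counting used the strand is not given in the sources used here, so reads of *Mt2* and *Gm45774* cannot be told apart, and the level of *Mt2* is uncertain.

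The promoters of these neighbours were searched for the core of the metal response element, TGCACNC or TGCGCNC, on both strands, in the window from 250 bases before to 50 after the RefSeq start. The 250 bases before the start are shown for GRCm38.p6, with matches in capitals (a match on the minus strand appears as its reverse complement), for *Mt1* at chr8:94178839-94179088 and for *Mt2* at chr8:94172368-94172617, both on the plus strand. The RefSeq starts lie less than 50 bases from those of the annotation above.

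Mt1 promoter: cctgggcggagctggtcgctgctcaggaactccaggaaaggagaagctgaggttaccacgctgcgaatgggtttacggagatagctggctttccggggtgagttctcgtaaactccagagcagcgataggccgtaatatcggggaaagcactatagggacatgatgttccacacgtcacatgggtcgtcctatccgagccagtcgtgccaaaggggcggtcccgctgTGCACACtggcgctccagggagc

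Mt2 promoter: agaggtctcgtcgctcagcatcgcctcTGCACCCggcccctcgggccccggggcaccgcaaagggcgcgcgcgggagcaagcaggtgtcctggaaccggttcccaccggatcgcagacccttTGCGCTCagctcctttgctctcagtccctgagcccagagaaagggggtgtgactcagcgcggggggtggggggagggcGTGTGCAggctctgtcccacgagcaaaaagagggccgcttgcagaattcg

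The whole window of *Mt1* had 3 matches, 1 of them before the RefSeq start and the others after it. That of *Mt2* had 4, of which 3 lie before the RefSeq start. Where transcription starts in these cells was not tested, and bases beyond the windows were not searched. The counts therefore do not show which of these promoters has more elements before its start in use. Windows were found for 6 of the 8 genes, 7 windows in all, and not for *Slc39a4* and *Slc39a14*. Matches were also present for *Slc30a1* (2) and for *Slc30a10* (3, of which a pair overlaps on opposite strands). The window of *Mtf1* and both windows of *Slc39a10* had no match. Of the *Slc39a10* windows, 1 lies inside the GENCODE gene and 1 beyond it, and neither covers its start at 46892852. The *Mtf1* window begins at 124802299, downstream of the GENCODE start at 124802104, so those starts were not searched. Of 32851 promoter windows of the same length, 25.7% held at least 1 match and 1.97% held 3 or more. Of the other motifs searched, TGACNNNGC, the core of the antioxidant response element, was found in the windows of *Mt2* and *Slc30a1* and in 12.4% of all windows. TTCNNNGAA, a STAT site, was found in 1 window of *Slc39a10* and in 8.30% of all windows. TGATGNAA, the core of an ATF4 element, was found in no member window and in 3.97% of all windows. A match of letters does not show binding.

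**Figure D1:**
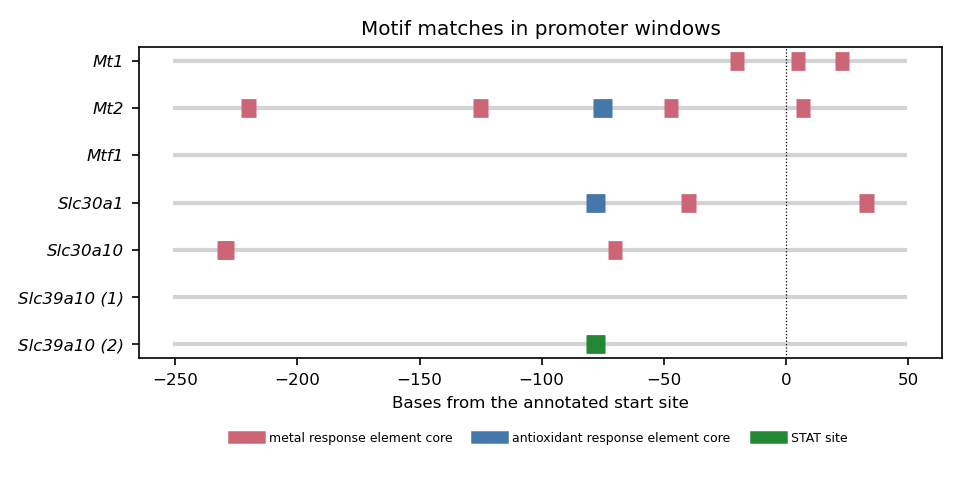
Matches to 3 motifs in the promoter windows of the members, by distance in bases from the annotated RefSeq start (dotted line). Each grey line is 1 window from 250 bases before to 50 after the start, and *Slc39a10* has 2 windows. Metal response element cores lie in the windows of *Mt1*, *Mt2*, *Slc30a1* and *Slc30a10*.

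*Mt1*, the metallothionein with the higher count, was not called different between the genotypes, and neither was *Mt2*. Its level was 375, 442, 439 and 471 CPM in WT replicates 1 to 4 and 549, 598 and 438 CPM in WDR6-WKO replicates 1 to 3. WDR6-WKO replicates 1 and 2 lay above every WT library, while replicate 3 lay inside the WT range, so the groups overlapped. The mean was 432 ± 40.3 CPM (n = 4, s.d.) in WT libraries and 528 ± 81.6 CPM (n = 3, s.d.) in WDR6-WKO. The log2FC of 0.29 (s.e. 0.11, 95% interval 0.04 to 0.55) had an unadjusted p of 0.0296 and did not pass edgeR's quasi-likelihood test after Benjamini-Hochberg adjustment over 14779 genes (adjusted p = 0.130). Without WDR6-WKO replicate 3 it was 0.41 and passed (adjusted p = 0.0252 by edgeR), and DESeq2 on all libraries gave 0.29 with an adjusted p of 0.0243.

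*Mt2* showed a different order of libraries. It stood at 26.8, 30.0, 31.4 and 34.3 CPM in WT replicates 1 to 4, at 23.98 and 24.004 CPM in WDR6-WKO replicates 1 and 2, and at 36.5 CPM in replicate 3. Replicates 1 and 2 were thus below, and replicate 3 above, every WT library. The log2FC was -0.13 (s.e. 0.15, 95% interval -0.45 to 0.19, adjusted p = 0.615 by edgeR). Without replicate 3 it was -0.35 and passed (adjusted p = 0.00147 by edgeR).

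The ratio of *Mt1* to *Mt2* counts within a library is free of scaling between libraries. WT replicates 1 to 4 had ratios of 14.0, 14.7, 14.0 and 13.7, whereas WDR6-WKO replicates 1 to 3 had 22.9, 24.9 and 12.0. *Mt2* made up 6.35% to 6.79% of the counts of both genes in WT. In WDR6-WKO its share was 4.19% in replicate 1 (95% Wilson interval 3.86% to 4.53%), 3.86% in replicate 2 (3.54% to 4.20%) and 7.68% in replicate 3 (7.13% to 8.27%). Intervals of this kind cover counting error only. In replicates 1 and 2 the interval lay below that of every WT library, whose intervals ran from 5.87% to 7.30%, and below that of replicate 3. Whether this exceeds the spread between mice was not tested. No p is given for this ratio, which combines members. Both genes together took 0.0459 ± 0.00427% of all counts in WT (n = 4, s.d.) and 0.0562 ± 0.00773% in WDR6-WKO (n = 3, s.d.), with replicate 3 at 0.0477%.

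**Figure D2:**
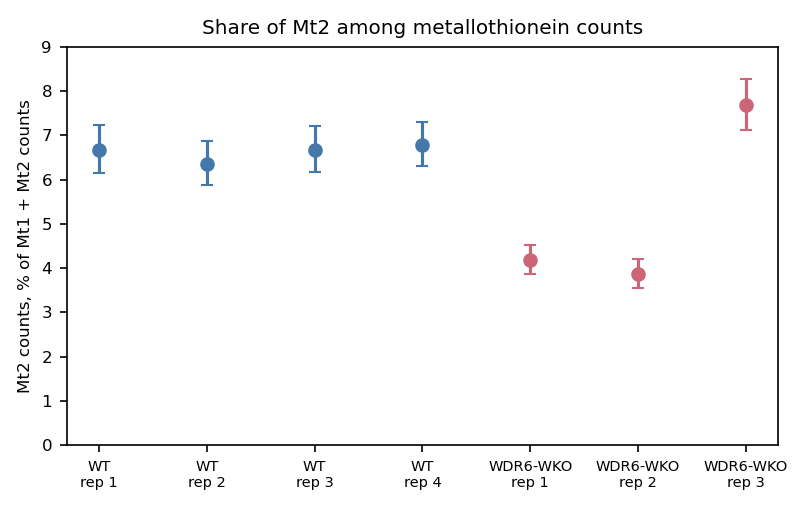
Counts of *Mt2* as a percentage of the counts of *Mt1* and *Mt2* together, on the vertical axis, in each of the 4 WT (blue) and 3 WDR6-WKO (red) libraries, with 95% Wilson intervals as bars. WDR6-WKO replicates 1 and 2 sit at 4.19% and 3.86%, below the WT libraries, and replicate 3 at 7.68%.

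*Slc39a14* (ZIP14), which imports zinc, manganese and non-transferrin-bound iron, was the one gene of the 7 that edgeR called at an adjusted p under 0.05 with all libraries, whereas DESeq2 called *Mt1* as well. It was lower in WDR6-WKO hepatocytes. Its level was 348, 336, 358 and 353 CPM in WT replicates 1 to 4 and 312, 308 and 327 CPM in WDR6-WKO replicates 1 to 3. Each WDR6-WKO library was below every WT library, which held for 23.5% of all genes tested in 1 direction or the other. The mean fell from 348 ± 9.40 CPM (n = 4, s.d.) to 315 ± 10.3 CPM (n = 3, s.d.), a change of -9.47%. The log2FC was -0.14 (s.e. 0.05, 95% interval -0.24 to -0.05, adjusted p = 0.0493 by edgeR). This call stood at the edge of the threshold. With the replicate number as a block the adjusted p was 0.0924, with library sizes alone 0.0957, and with each of 6 libraries left out in turn 0.0724 to 0.168, whereas without WDR6-WKO replicate 3 it was 0.00127, all by edgeR. The level was lower in WDR6-WKO under every one of these settings, with log2FCs from -0.17 to -0.12. *Slc39a14* lies on chromosome 14 of GRCm38 from 70303469 to 70351425 on the minus strand. No other annotated gene overlaps the exons of its main transcript. Of the 50-base stretches of all its protein-coding transcripts, 0.371% recur in transcripts of other genes.

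Genes whose log2 CPM followed *Slc39a14* most closely over the 7 libraries, among 9342 genes with a mean of at least 10 CPM, were *Fbxo18* (Pearson's r = 0.993), *Ncor1* (0.991) and *Errfi1* (0.987). *Ncor1* encodes a nuclear receptor corepressor. These correlations share the 7 libraries and the genotype difference and are given as a description. Their log2FCs were -0.14, -0.16 and -0.10, and of the 3 only *Ncor1* had an adjusted p under 0.05 (0.0391 by edgeR).

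*Slc39a4* (ZIP4), the importer that takes up dietary zinc in the intestine, was counted at 118 to 125 CPM in WT and at 119, 114 and 106 CPM in WDR6-WKO replicates 1 to 3. WDR6-WKO replicate 1 was within the WT range and the others below it. Its log2FC was -0.10 (s.e. 0.05, 95% interval -0.21 to 0.01, adjusted p = 0.223 by edgeR), or -0.06 without replicate 3. *Slc39a10* (ZIP10), an importer of the plasma membrane, had 17.0 to 19.7 CPM in WT and 17.5, 15.7 and 20.4 CPM in WDR6-WKO, with a log2FC of -0.04 (95% interval -0.25 to 0.17, adjusted p = 0.841 by edgeR), or -0.14 without replicate 3.

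The exporter *Slc30a1* (ZnT1), a target of MTF1 that removes zinc across the plasma membrane, stood at 50.4 to 58.1 CPM in WT and at 50.2, 50.7 and 61.2 CPM in WDR6-WKO replicates 1 to 3. Its log2FC was -0.01 (95% interval -0.18 to 0.15, adjusted p = 0.943 by edgeR), with -0.11 without replicate 3 and a change of sign, to 0.01, with library sizes alone. *Mtf1* itself, the metal sensor, had 44.6 to 46.4 CPM in WT and 45.3, 42.3 and 52.2 CPM in WDR6-WKO, with a log2FC of 0.04 (95% interval -0.11 to 0.19, adjusted p = 0.788 by edgeR), or -0.05 without replicate 3. The intervals of these 2 genes bound the fold between 0.885 and 1.11 for *Slc30a1* and between 0.924 and 1.14 for *Mtf1*. For both genes, and for *Slc39a10*, the groups overlapped. Replicate 3 was the highest of all 7 libraries for *Mt2*, *Mtf1*, *Slc30a1* and *Slc39a10*, and the lowest for *Slc39a4*. Genes on the opposite strand overlap 9.45% of the *Mtf1* transcript (*1110065P20Rik*) and 8.92% of that of *Slc30a1* (*1700034H15Rik*).

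**Figure D3:**
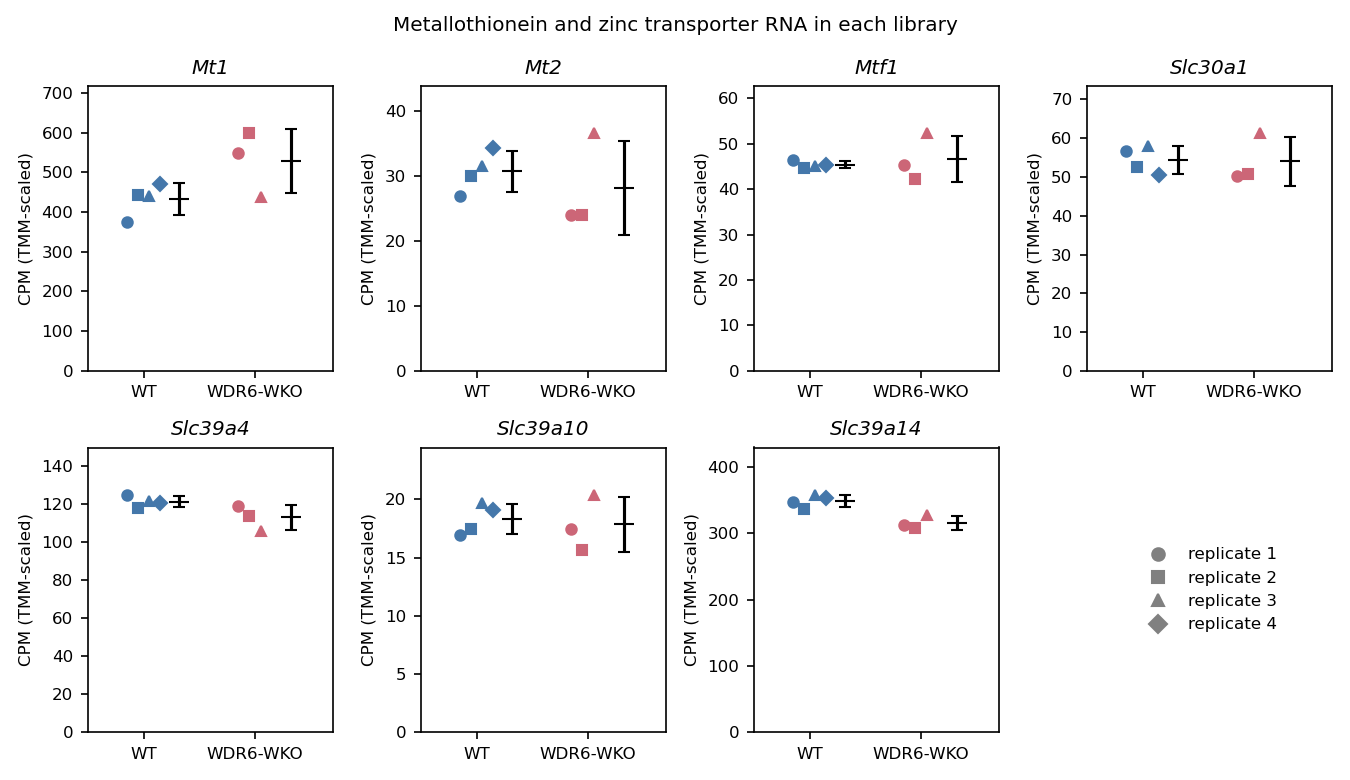
Level in TMM-scaled CPM (vertical axes from 0) of the 7 genes in each WT (blue) and WDR6-WKO (red) library, 1 symbol shape per replicate number, with the mean ± s.d. in black. All 3 WDR6-WKO points of *Slc39a14* lie below the WT points, and replicate 3 (triangle) of WDR6-WKO goes apart from replicates 1 and 2 for *Mt1* and *Mt2*.

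Of the 7 genes, 1 was lower and 0 were higher at an adjusted p under 0.05 when tested with edgeR, beside 12.8% of all 14779 genes called, 6.65% higher and 6.18% lower. At an unadjusted p under 0.05, 1 was higher (*Mt1*) and 1 lower, beside 28.1% of all genes in either direction. DESeq2, which called 13.5% of all genes, called 1 higher (*Mt1*) and 1 lower (*Slc39a14*), and limma-voom called *Slc39a14* alone. Without WDR6-WKO replicate 3 the edgeR test called 3 of the 7, *Mt1* higher and *Mt2* and *Slc39a14* lower, beside 28.6% of all genes. The median log2FC of the 7 was -0.04, against 0.01 over all genes tested. Scaling by library size alone moved the share of higher genes among those called from 51.8% to 63.5% and the median of all genes to 0.03.

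**Figure D4:**
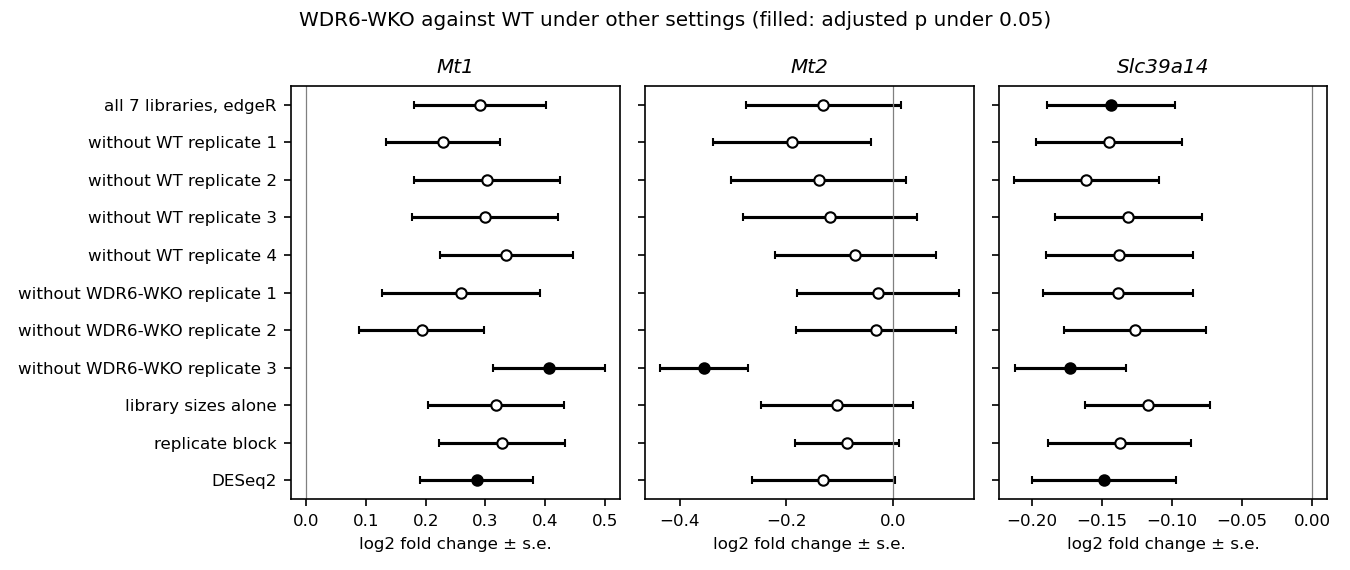
Log2FC of WDR6-WKO against WT with its s.e. (horizontal axes) for *Mt1*, *Mt2* and *Slc39a14* with all 7 libraries, with each library left out, with library sizes alone, with a replicate block and in DESeq2. Filled points have an adjusted p under 0.05. Without WDR6-WKO replicate 3 all 3 genes are filled, *Mt1* at 0.41, *Mt2* at -0.35 and *Slc39a14* at -0.17.

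Per kilobase of the main transcript, the order of the levels in WT was *Mt1* (787 CPM per kb), *Slc39a14* (70.7), *Mt2* (60.0), *Slc39a4* (44.1), *Slc30a1* (10.4), *Mtf1* (5.95) and *Slc39a10* (3.33). The ranges of neighbours in this order did not overlap in WT. In WDR6-WKO the order was the same, but *Mt2* (46.9 to 71.4 CPM per kb) overlapped *Slc39a14* (62.4 to 66.4 CPM per kb). The place of *Mt2* rests on a transcript that is mostly covered by *Gm45774*.

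The rest of both transporter families was read from a list of 19 genes, of which 14 were tested. Among 5 exporters, *Slc30a5* and *Slc30a7*, which load zinc into the early secretory pathway, were lower, beside 6.18% of all genes tested. *Slc30a5* fell from 68.7, 71.3, 74.7 and 72.7 CPM in WT to 57.3, 57.2 and 66.3 CPM in WDR6-WKO replicates 1 to 3, a log2FC of -0.26 (s.e. 0.06, adjusted p = 0.0158 by edgeR). *Slc30a7* fell from 78.8, 81.1, 87.5 and 80.2 CPM to 67.2, 64.5 and 76.2 CPM, a log2FC of -0.24 (s.e. 0.07, adjusted p = 0.0232 by edgeR). For both genes the groups did not overlap, which held for 23.5% of all genes tested, and WDR6-WKO replicate 3 was nearest to WT. Without it the log2FCs were -0.33 and -0.32. Both calls were lost in edgeR when WT replicate 3 or 4, or WDR6-WKO replicate 1 or 2, was left out, and that of *Slc30a7* also when WT replicate 2 was left out.

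The other exporters did not pass. *Slc30a9*, a mitochondrial exporter, was at 103 ± 1.75 CPM (n = 4, s.d.) in WT libraries and 92.2 ± 4.42 CPM (n = 3, s.d.) in WDR6-WKO. Its groups did not overlap either. The log2FC of *Slc30a9* was -0.16 (adjusted p = 0.0599 by edgeR, and 0.0493 in DESeq2). Without WDR6-WKO replicate 3 it was -0.20, with an adjusted p of 0.00260 by edgeR. *Slc30a4* was at 150 to 156 CPM in WT and at 153, 153 and 200.3 CPM in WDR6-WKO, where replicate 3 alone was above the WT range (log2FC 0.14, adjusted p = 0.298 by edgeR), and its log2FC was -0.01 without that library. Of 9 importers, 0 were called in either direction by edgeR, DESeq2 or limma-voom, beside 12.8%, 13.5% and 12.5% of all genes. *Slc39a5* got no adjusted p in DESeq2 and so could not be called there. At an unadjusted p under 0.05, 2 were higher in edgeR and in DESeq2 and 1 in limma-voom. In edgeR 28.1% of all genes passed that threshold in either direction, and the share in the other tools was not counted. *Slc39a6* was called higher by edgeR with the replicate block (log2FC 0.23, adjusted p = 0.0407) and with library sizes alone (0.22, adjusted p = 0.0317). Without WDR6-WKO replicate 3, edgeR called 3 of the 9 higher (*Slc39a3*, *Slc39a6* and *Slc39a7*). That fit called 2150 of all 14796 genes higher, and 28.6% in either direction. *Slc39a7* stood at only 3.41 to 7.32 CPM and was lowest in the library left out. The most abundant importer of this list, *Slc39a1*, an importer of the plasma membrane, had 238 ± 9.26 CPM (n = 4, s.d.) in WT libraries and 236 ± 12.9 CPM (n = 3, s.d.) in WDR6-WKO, with a log2FC of -0.01 (95% interval -0.12 to 0.10). The median log2FC was -0.16 over the 5 exporters and 0.10 over the 9 importers, and whether the families differ was not tested.

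**Figure D5:**
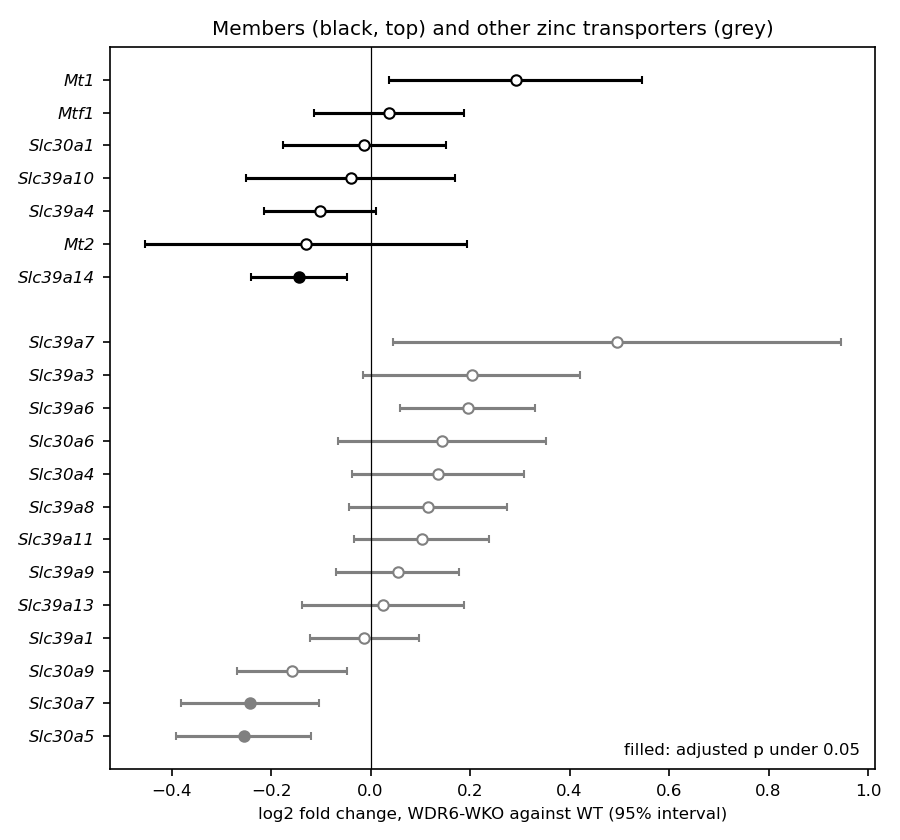
Log2FC of WDR6-WKO against WT with its 95% interval (horizontal axis) for the 7 members (black) and 13 other zinc transporters (grey). Filled points have an adjusted p under 0.05 by edgeR: *Slc39a14*, *Slc30a5* and *Slc30a7*, all lower. *Slc39a5*, at 0.580 CPM in WT, is not drawn.

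Among 5 further genes known to respond to MTF1, 2 were higher and 1 lower by edgeR (median log2FC 0.20). The shares of all genes tested were 6.65% higher and 6.18% lower. *Hamp*, which encodes the iron hormone hepcidin, rose from a WT range of 14.1 to 21.2 CPM to 49.7, 41.8 and 34.1 CPM in WDR6-WKO replicates 1 to 3, a log2FC of 1.19 (s.e. 0.15, adjusted p = 0.000594 by edgeR). *Ndrg1* rose from 52.1 ± 4.22 CPM (n = 4, s.d.) to 68.7 ± 2.74 CPM (n = 3, s.d.), a log2FC of 0.40 (adjusted p = 0.000964 by edgeR). *Gclc*, the catalytic subunit of glutathione synthesis, was the gene that fell (log2FC -0.28, adjusted p = 0.00147 by edgeR). These genes are also controlled by other factors.

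Of 9 genes for iron and manganese transport, 2 were lower. Over all genes tested, edgeR called 6.18% lower. *Slc40a1*, the iron exporter ferroportin, fell from a WT range of 293 to 309 CPM to 228, 225 and 251 CPM in WDR6-WKO (log2FC -0.36, s.e. 0.05, adjusted p = 0.000197 by edgeR), and *Atp2c1*, a Golgi calcium and manganese pump, fell by 0.16 on the log2 scale (adjusted p = 0.0463 by edgeR). Of 10 copper handling genes, 1 was lower, the plasma copper carrier *Cp* (log2FC -0.25, adjusted p = 0.0228 by edgeR), and the other 9 did not pass.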

How the data were processed

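Total RNA of primary hepatocytes was made into libraries with the NEBNext Ultra RNA kit and sequenced on an Illumina HiSeq, from 4 WT and 3 WDR6-WKO libraries. The authors deposited whole-number read counts per gene symbol for all libraries, aligned to mm10, with Bowtie2 2.2.3 named in the submitters' processing notes. The counting tool, its annotation and its use of strand are not given in the sources used here. The table had 14819 rows, each summing to at least 50 counts, and 21 rows carried a date in place of a symbol. Counts were tested in R 4.3.3 with edgeR 4.0.16 (filterByExpr, TMM scaling, robust quasi-likelihood test, Benjamini-Hochberg adjustment over 14779 genes), with genotype as the only term and genes called at an adjusted p under 0.05. DESeq2 1.42.0 and limma-voom (limma 3.58.1) were alternatives. The code was tested on simulated counts. CPM are TMM-scaled, and CPM per kb uses the main GENCODE transcript on GRCm38. Depth was 17816913 to 23668940 counts, and intervals on shares are Wilson intervals.

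The members and gene lists were chosen with earlier results of these data known. Members were named with every library. Of the other transporters, those called and the 3 most abundant were named, and of the MTF1, copper and iron lists, called genes that changed by 0.35 or more in either direction on the log2 scale. Of the interleukin-6, glucocorticoid and NRF2 lists, the 2 genes with the smallest p in each were named. *Slc39a3*, *Slc39a5*, *Slc39a6*, *Slc39a7*, *Gclc*, *Atp2c1* and *Cp* were named after their values were seen. So were *Fga*, *Fgb*, *Steap4*, *Hmox1*, *Gclm* and the cell type markers named singly. The labels number the replicates of both genotypes, but same-numbered libraries came from different mice. The deviations of same-numbered libraries from their group means correlated at 0.201, 0.106 and 0.173 over genes with a mean of at least 10 CPM, and at 0.0689, 0.0311 and 0.0566 over all genes tested. Some differently numbered libraries correlated as strongly (WT 1 with WDR6-WKO 2 at 0.325, WT 4 with WDR6-WKO 3 at 0.191, over genes with a mean of at least 10 CPM), so the numbers are not shown to pair the libraries. A fit with the replicate number as a block is given beside the calls that it changes. WT replicate 4 has no partner.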

Additional observations from a re-analysis of the deposited data

How the results depend on the processing

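When libraries were left out one at a time, the number of genes called by edgeR ranged from 1032 to 4233 (1897 with all libraries), that of members from 0 to 3 and that of other zinc transporters from 0 to 6. WDR6-WKO replicate 3 gave all 3 upper values. The summed metallothionein share, as WDR6-WKO over WT, ranged from 1.15 to 1.32 (1.23 with all). Log2 fold changes ranged from 0.19 to 0.41 for *Mt1*, -0.35 to -0.03 for *Mt2*, -0.17 to -0.13 for *Slc39a14* and -0.15 to -0.06 for *Slc39a4*, and changed sign for *Mtf1* (-0.052 to 0.10), *Slc30a1* (-0.11 to 0.035) and *Slc39a10* (-0.14 to 0.044). The thresholds of the study's methods (absolute log2 fold change of at least 0.35, unadjusted p under 0.05) were applied here to the edgeR fit, whereas the study used DESeq2. Of the members, 0 were called with library sizes alone, 0 with the replicate block, 0 at those thresholds and 2 in DESeq2. The shares of all genes called were 12.9%, 11.9%, 10.4% and 13.5% in that order. At those thresholds 1 other transporter passed (*Slc39a7*). *Slc30a1* was at 0.014 with library sizes alone. The replicate block gave 1762 genes called and, among the zinc transporters, lost *Slc39a14* (log2 fold change -0.14, adjusted p = 0.0924 in edgeR) and added *Slc39a6* (0.23, adjusted p = 0.0407 in edgeR). Median-of-ratios size factors, limma-voom, no filter on low counts and a minimum of 10 counts in every library each called *Slc39a14*, *Slc30a5* and *Slc30a7* and no other zinc gene. The causes of these changes were not tested. Depth limits *Slc39a10* (332 to 421 counts) and *Mt2* (508 to 683 counts) most among the members.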

Other observations

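Signals known to act on metallothioneins or *Slc39a14* were read from 3 further lists in the edgeR test. That test called 6.65% of all genes higher and 6.18% lower. Of 16 genes of the interleukin-6 and STAT3 response of hepatocytes, 6 were higher and 3 lower, with a median log2 fold change of -0.03. *Il1rn*, the interleukin-1 receptor antagonist, rose from 31.1 ± 4.23 CPM (n = 4, s.d.) in WT to 79.1 ± 5.82 CPM (n = 3, s.d.) in WDR6-WKO (log2 fold change 1.35, adjusted p = 2.22e-07 in edgeR). *Lcn2*, the iron-siderophore carrier lipocalin 2, rose from 1631 ± 96.3 to 2230 ± 30.9 CPM (log2 fold change 0.45, adjusted p = 1.95e-05). The fibrinogen chains *Fga* and *Fgb* and *Steap4* were those that fell, so members of this list went both ways.

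Of 10 glucocorticoid response genes, 1 was higher and 2 lower, with a median of 0.00. *Tsc22d3*, which encodes the glucocorticoid-induced leucine zipper protein, rose by a log2 fold change of 0.35 (adjusted p = 0.00741 in edgeR), and *Pck1*, of gluconeogenesis, fell from 1.47 ± 0.586 to 0.427 ± 0.177 CPM (log2 fold change -1.73, adjusted p = 0.00925 in edgeR). Of 9 NRF2 targets, 3 were higher and the other 6 did not pass, with a median of 0.08. This list held *Gclm* but not its partner *Gclc*, which fell as given above (log2 fold change -0.28, adjusted p = 0.00147 in edgeR). *Slc7a11*, the cystine importer, rose from 154 ± 7.23 to 228 ± 20.2 CPM (log2 fold change 0.56, adjusted p = 1.47e-05 in edgeR), and *Osgin1* rose by 0.40 (adjusted p = 0.00202 in edgeR). *Hmox1* stood at 547 ± 9.48 CPM in WT and 520 ± 32.5 CPM in WDR6-WKO (log2 fold change -0.07, adjusted p = 0.357 in edgeR). The metallothioneins *Mt3* and *Mt4* were not analysed here.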
